A study of Mus musculus with 16 samples.

Results

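The 7 genes described here govern the supply of NAD in axons and the program that destroys a cut axon: Sarm1, Nmnat1, Nmnat2, Nmnat3, Nampt, Mycbp2 and Fbxo45. They were chosen by name as the SARM1, NMNAT and ubiquitin ligase genes of axon degeneration, and each was found by its Entrez identifier among the 36528 identifiers of the deposited gene tables. All 7 were measured in every library, and all 7 passed the filter on low counts that left 19391 genes for testing. Poly(A) RNA was sequenced from mouse retina 3 days after optic nerve crush, which cuts the axons of the retina's output neurons, the ganglion cells. The 16 libraries came from crushed retina with the DLK inhibitor GNE-3511 (crushed DLKi, n = 5), crushed retina with vehicle (crushed vehicle, n = 3), uncrushed retina with the inhibitor (uncrushed DLKi, n = 5) and uncrushed retina with vehicle (uncrushed vehicle, n = 3). DLK (Map3k12) is a kinase that signals axon damage to the cell body. The inhibitor was dosed at 75 mg/kg, 60 h and 68 h after injury, so the first 60 h passed without it, and the vehicle is labelled MCT. The labels state 5 mice per drug but give no strain, genotype or age and do not tie retinas to mice; p-values therefore reflect only how much these retinas vary, which may be technical. RNA came from whole retina, in which ganglion cells are a minority, and the cut axons themselves lie mostly outside the tissue sampled.

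As background, NAD is made from nicotinamide in a short salvage pathway. NAMPT, its rate-limiting enzyme, makes nicotinamide mononucleotide (NMN), and the NMNAT enzymes turn NMN into NAD. NMNAT1 is the nuclear enzyme, NMNAT2 the short-lived enzyme that is carried down axons, and NMNAT3 is known mainly from mitochondria. SARM1 is an enzyme that cleaves NAD; it is held inactive while NMNAT2 is present and is switched on when NMNAT2 is lost and NMN accumulates, after which the axon falls apart. MYCBP2, also called PHR1, and its partner FBXO45 form a ubiquitin ligase that marks NMNAT2 for destruction. Much of this control acts on the proteins, which were not measured.

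The 3 Nmnat genes encode related enzymes, so the start of each coding sequence is shown to let the reader see how far reads of 50 bases can tell them apart. The lines give coding bases 1 to 60 of the principal transcript, 5′ to 3′, from GENCODE M21 on GRCm38; capitals mark the run of 8 bases that all 3 share.
Nmnat1: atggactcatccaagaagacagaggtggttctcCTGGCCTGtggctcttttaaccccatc
Nmnat2: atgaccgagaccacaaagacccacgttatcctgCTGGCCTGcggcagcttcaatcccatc
Nmnat3: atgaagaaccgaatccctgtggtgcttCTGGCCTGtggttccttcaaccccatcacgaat
The coding sequences were 858, 924 and 738 bases long for Nmnat1, Nmnat2 and Nmnat3. The longest run that Nmnat2 and Nmnat3 shared was 14 bases, that of Nmnat1 and Nmnat3 was 11 bases, and that of Nmnat1 and Nmnat2 was 10 bases. No stretch of 50 bases was shared between any of the 7 transcripts, so a uniquely aligned read could not be swapped between these genes. Of the 50-base stretches of Nmnat1, 4.7% also occurred in transcripts of other genes, and unique alignment would drop such reads; the share was 0.68% for Fbxo45 and at most 0.09% for the other 5 genes.

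In GRCm38, Sarm1 (Entrez 237868) lies at chr11:78470273-78497816 on the minus strand and Nmnat1 (66454) at chr4:149467569-149485210, also on the minus strand. Nmnat2 (226518) lies at chr1:152954781-153119266, Nmnat3 (74080) at chr9:98287433-98420533 and Nampt (59027) at chr12:32820335-32853369, all on the plus strand. Mycbp2 (105689) lies at chr14:103113411-103346840 and Fbxo45 (268882) at chr16:32230112-32247025, both on the minus strand. All are protein-coding, and in GENCODE M21 no exon base of any of them was overlapped by another gene on either strand. By that annotation, counting without strand would not mix them with a neighbour. The annotation behind the deposited counts was not given and may differ.

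Depth was 22.35 to 44.75 M counted reads per library. Across all genes, a principal component with 23.7% of the variance separated all crushed from all uncrushed libraries. The second, with 17.3%, set apart uncrushed vehicle library 1 and crushed vehicle library 3, at -49.4 and -34.3 against -17 to 23.1 for the other libraries. Those 2 were also the shallowest, at 22.35 M and 25.39 M reads, and results that rest on them are given with and without them. Uncrushed vehicle library 1 also had the highest share of counts in mitochondrial genes, 4.493%, against 2.001% to 3.102% in the other libraries. Rod markers were abundant, rhodopsin alone holding 3.078% to 4.285% of the counts, and all 19 ganglion cell markers were present in every library. Lens markers averaged lower in crushed retina, with overlap between the groups. Their summed level was 2.05 to 17.2 nRPKM in crushed DLKi, against 10.3 to 435 in uncrushed DLKi retina, and 0.796 to 14.3 in crushed vehicle, against 0.989 to 195 in uncrushed vehicle retina, where nRPKM is the authors' RPKM, reads per length and depth, scaled by a size factor per library. The part of lens RNA and of mitochondrial share in the comparisons below was not tested.

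The transcript of the NAD-cleaving enzyme was the most abundant of the 7. Over the 16 libraries Sarm1 averaged 26.5 ± 2.57 nRPKM (SD, n = 16), above 89.7% of all tested genes. Mycbp2 followed at 15.9 ± 1.8 nRPKM, then Nampt at 12.1 ± 0.818 and Fbxo45 at 12.1 ± 0.853. Nmnat2 averaged 7.61 ± 1.46 nRPKM, Nmnat1 2.78 ± 0.216 and Nmnat3 1.57 ± 0.194, the last above 33.3% of tested genes. Since nRPKM is per length, these levels can be compared between genes. The order had 1 tie: Nampt and Fbxo45 overlapped almost fully, at 9.93 to 13.1 and 10.3 to 13.9 nRPKM, and Fbxo45 also reached the lowest Mycbp2 value of 13.4. The other neighbours did not overlap in level. The lowest Sarm1 value, 22.0, lay above the highest Mycbp2 value, 20.9, the highest Nmnat2 value, 9.68, lay below every Nampt value, and the 3 Nmnat genes kept apart from each other. Raw counts ranged from 118 to 206 reads per library for Nmnat3, the fewest of the 7, and from 6825 to 12198 for Mycbp2.

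**Figure D1:**
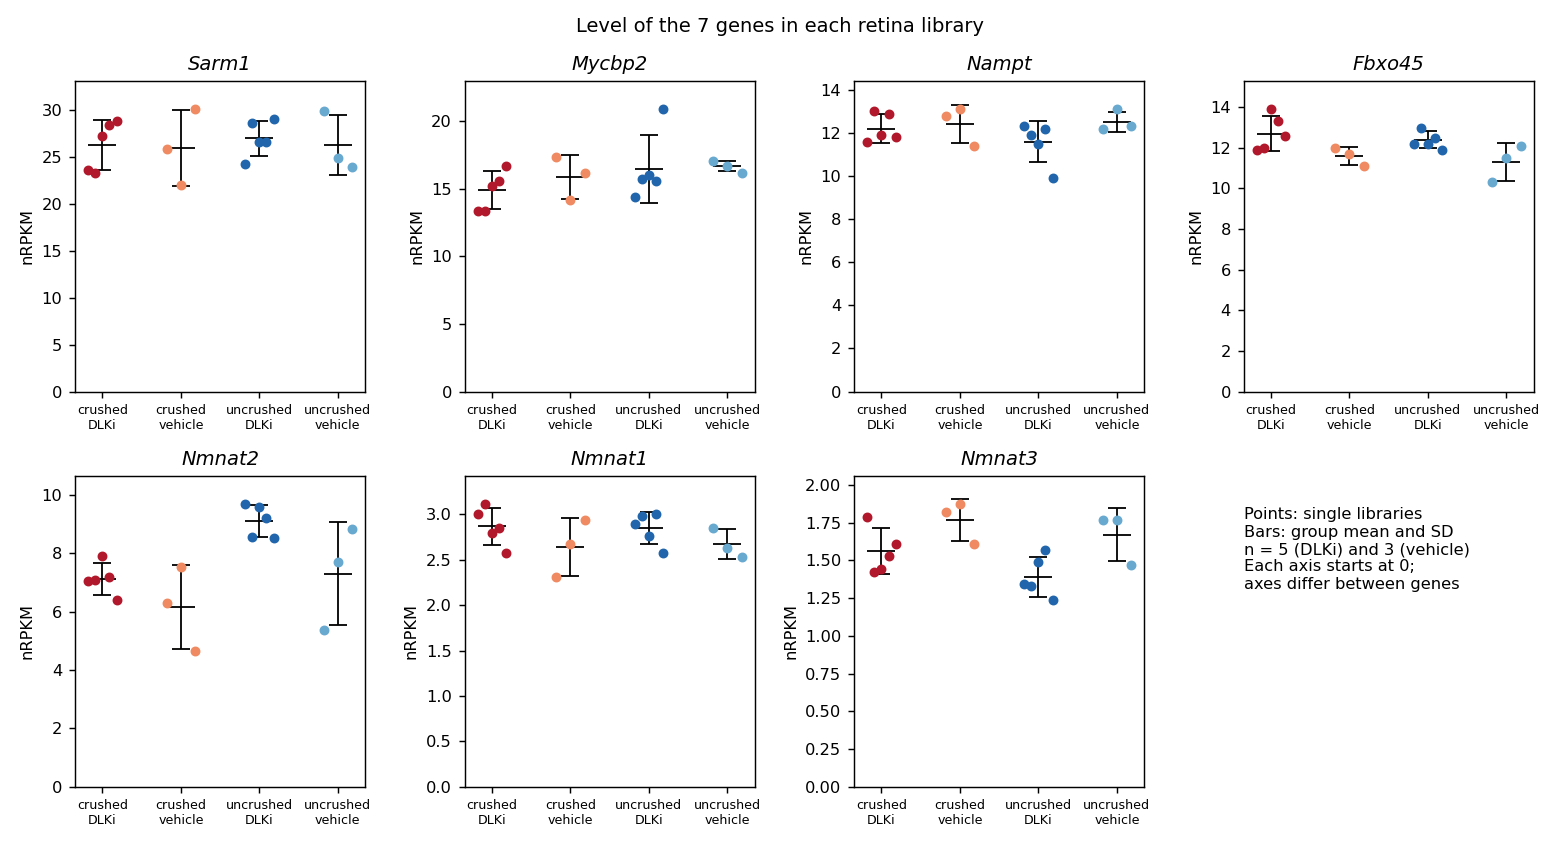
Level in nRPKM (linear axis from 0, one scale per gene) of each gene in the 16 retina libraries, one point per library, with group mean and SD (n = 5 with DLKi, n = 3 with vehicle). Only Nmnat2 separates a crushed from an uncrushed group, with crushed DLKi at 6.40 to 7.92 and uncrushed DLKi at 8.53 to 9.68; Mycbp2 has a single high library at 20.9.

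Nmnat2, the axonal NAD-making enzyme, averaged lower in crushed than in uncrushed retina in each drug arm, without passing the main test, which left libraries unpaired. It was also the gene of the 7 that varied most, with a coefficient of variation of 19.2% against 6.75% to 12.4% for the other 6 genes. It had 7.05, 7.10, 7.92, 7.20 and 6.40 nRPKM in crushed DLKi libraries, against 9.68, 8.58, 9.60, 9.23 and 8.53 nRPKM in uncrushed DLKi libraries. It had 6.31, 7.54 and 4.66 nRPKM in crushed vehicle libraries, against 5.38, 7.72 and 8.84 nRPKM in uncrushed vehicle libraries. With the inhibitor every crushed library lay below every uncrushed one; with vehicle the groups overlapped, and the lowest value in each vehicle group came from the library that stood apart on the second principal component. Nmnat2 was the 1 of the 7 genes whose groups did not overlap in that comparison, where 6.7% of all tested genes did not, 3.3% with every crushed library lower. The count was 0 of 7 for crush with vehicle (12.9% of all tested genes), for the inhibitor in crushed retina (9.55%) and for the inhibitor in uncrushed retina (9.55%).

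The fitted log2 change of Nmnat2 with crush was -0.35 ± 0.12 with the inhibitor (SE; 95% interval -0.60 to -0.10, or 0.783-fold with bounds of 0.658 and 0.933). It did not pass the threshold of 0.05 after Benjamini-Hochberg adjustment over all genes in edgeR's quasi-likelihood test (adjusted p = 0.114). With vehicle the change was -0.25 ± 0.16 (-0.57 to 0.08, adjusted p = 0.73). Averaged over both drugs it was -0.30 ± 0.10 (-0.51 to -0.09), again short of the threshold (adjusted p = 0.0742). The call depended on vehicle libraries, which enter the spread shared by all groups. Without uncrushed vehicle library 1 and crushed vehicle library 3, the change with the inhibitor was the same size, -0.35 ± 0.07, and was called (adjusted p = 0.00326), as was the average over both drugs, -0.30 ± 0.06 (adjusted p = 0.00517). With vehicle it was then -0.26 ± 0.11 and was not called (adjusted p = 0.394). Leaving out uncrushed vehicle library 1 alone gave adjusted p = 0.0331 with the inhibitor and 0.00547 on average, and leaving out crushed vehicle library 2 alone gave 0.0181 on average. Other libraries left out weakened the average. It was -0.22 without crushed vehicle library 3 (adjusted p = 0.193) and -0.22 without uncrushed vehicle library 3 (adjusted p = 0.243). With vehicle, the change was -0.08 without crushed vehicle library 3, -0.09 without uncrushed vehicle library 3, and -0.42 without uncrushed vehicle library 1 and, separately, without crushed vehicle library 2; it was not called in any of these. With limma on log2(nRPKM + 0.1) neither the change with the inhibitor nor the average was called (adjusted p = 0.163 and 0.109). On log2(nRPKM + 1) limma's adjusted p was 0.16 and 0.109. A fit on the DLKi groups alone called the decrease (adjusted p = 0.0029), and DESeq2 called the average over both drugs (adjusted p = 0.0353) but not the change with the inhibitor (adjusted p = 0.0605). Pairing libraries by adjacent library number, which the labels do not tie to mice, also led to a call in each crush comparison. Its values are given in the closing section on processing.

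Nmnat2 also read higher with the inhibitor than with vehicle, in either eye, without passing the test. The log2 difference was 0.21 ± 0.14 in crushed retina (-0.09 to 0.50, adjusted p = 0.536) and 0.31 ± 0.14 in uncrushed retina (0.02 to 0.61, adjusted p = 0.262). These 2 differences came down to 0.04 ± 0.09 and 0.14 ± 0.09 once the 2 vehicle libraries that stood apart were left out. In crushed retina the difference was 0.04 without crushed vehicle library 3 and 0.38 without crushed vehicle library 2. In uncrushed retina it was 0.14 without uncrushed vehicle library 1 and 0.47 without uncrushed vehicle library 3. The crush effect with the inhibitor minus that with vehicle was -0.11 ± 0.20 (-0.52 to 0.31, adjusted p = 1.0), so these data do not separate the crush effect of one drug arm from that of the other.

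Ganglion cell markers were also lower in crushed retina. The summed level of the 19 markers was 413 to 498 nRPKM in crushed DLKi and 613 to 806 in uncrushed DLKi retina; it was 328 to 453 in crushed vehicle and 496 to 685 in uncrushed vehicle retina. The lowest sums of the vehicle groups, 328 in crushed vehicle library 3 and 496 in uncrushed vehicle library 1, belonged to the libraries with the lowest Nmnat2, 4.66 and 5.38 nRPKM. The match did not hold across eyes: the marker sum of uncrushed vehicle library 1 was above that of 7 of the 8 crushed libraries, while its Nmnat2 level was below that of 7 of the 8. Summed amacrine markers also had a low value in each vehicle group. It was 179 against a median of 240 nRPKM in crushed vehicle, and 154 against 228 in uncrushed vehicle retina. Which libraries held these amacrine values is not given here. Averaged over both drugs, 14 of the 19 markers fell and 1, Gap43, rose with crush, where 3.23% and 5.22% of all tested genes did, with a median log2 change of -0.83, against -0.003 over all tested genes. Rbpms2, which encodes an RNA-binding protein used to mark ganglion cells, fell by 1.65 on the log2 scale, and Nefh, a neurofilament protein of thick axons, by 1.47. The change of Nmnat2, -0.30, was smaller than these. Like Nmnat2, the markers read higher with the inhibitor than with vehicle, by a median log2 difference of 0.24 in crushed and 0.27 in uncrushed retina. Over all tested genes that median was 0.008 and 0.007. The shift was not particular to ganglion cell markers. Medians were 0.19 and 0.18 for bipolar markers and 0.17 and 0.23 for amacrine markers. They were 0.05 and 0.03 for rod markers and 0.03 and -0.2 for microglia markers. In crushed retina edgeR called 3 of the 19 higher, where 0.505% of all tested genes were called in either direction. In uncrushed retina it called 0. Without the 2 vehicle libraries that stood apart, the marker sum was 408 and 453 nRPKM in crushed vehicle, against 413 to 498 in crushed DLKi retina. It was 668 and 685 in uncrushed vehicle, against 613 to 806 in uncrushed DLKi retina. The marker calls without these 2 libraries are not given here. In bulk RNA, fewer ganglion cells and less Nmnat2 RNA per cell cannot be told apart, and the part of cell number in the result was not tested.

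**Figure D2:**
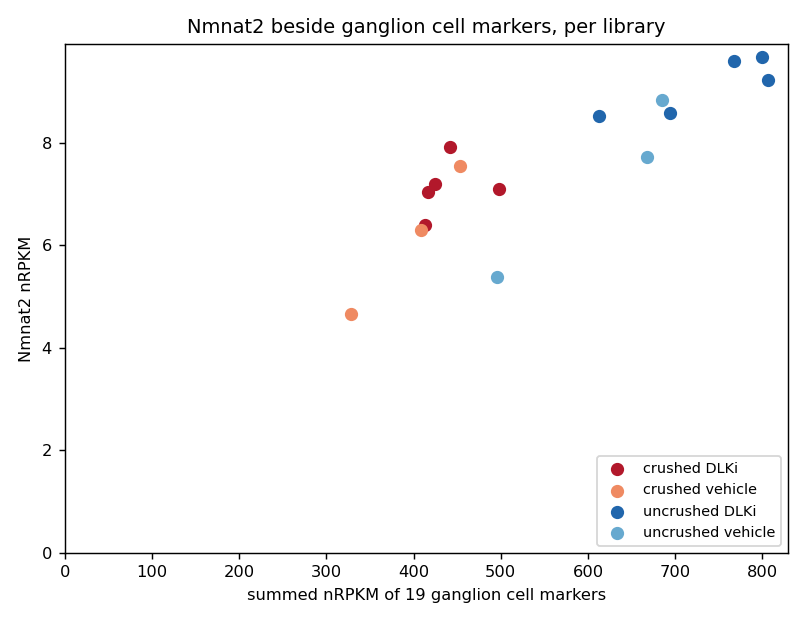
Nmnat2 level (nRPKM) against the summed nRPKM of 19 ganglion cell markers, one point per library, linear axes from 0. All crushed DLKi points lie at 413 to 498 on the horizontal axis and all uncrushed DLKi points at 613 to 806; the lowest Nmnat2 value, 4.66, is at the lowest marker sum, 328.

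Nmnat1, the nuclear enzyme, and Nmnat3 showed no change that passed the test. Nmnat1 averaged 2.87 ± 0.205 nRPKM in crushed DLKi (n = 5), 2.64 ± 0.316 in crushed vehicle (n = 3), 2.85 ± 0.177 in uncrushed DLKi (n = 5) and 2.67 ± 0.166 in uncrushed vehicle retina (n = 3; SD throughout). Its log2 change with crush was 0.01 ± 0.08 with the inhibitor (-0.16 to 0.19) and -0.01 ± 0.11 with vehicle (-0.24 to 0.22). All 4 groups overlapped, within 2.31 to 3.11 nRPKM.

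Nmnat3 had 1.79, 1.42, 1.44, 1.53 and 1.61 nRPKM in crushed DLKi libraries, against 1.34, 1.33, 1.49, 1.57 and 1.24 nRPKM in uncrushed DLKi libraries. It had 1.82, 1.87 and 1.61 nRPKM in crushed vehicle libraries, against 1.77, 1.77 and 1.47 nRPKM in uncrushed vehicle libraries. The groups overlapped in both arms. The crush change was 0.16 ± 0.10 with the inhibitor (adjusted p = 0.549) and 0.08 ± 0.13 with vehicle (adjusted p = 0.96). With the inhibitor Nmnat3 read lower than with vehicle, by a log2 change of -0.26 ± 0.12 in uncrushed retina (-0.51 to -0.02, adjusted p = 0.262) and -0.18 ± 0.12 in crushed retina (-0.43 to 0.06, adjusted p = 0.506). Neither passed the test.

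The 3 levels together give the make-up of Nmnat transcripts per length. Nmnat2 held 59.5% to 65.1% of their summed nRPKM in crushed DLKi retina, against 66.6% to 69.6% in uncrushed DLKi retina. The same share was 50.6% to 62.4% in crushed vehicle retina and 53.7% to 68.9% in uncrushed vehicle retina. Nmnat3 held 11.8% to 15.2% in crushed DLKi, 15.5% to 17.5% in crushed vehicle, 9.6% to 11.4% in uncrushed DLKi and 11.4% to 17.7% in uncrushed vehicle retina. The sum of the 3 averaged 11.6 ± 0.59 nRPKM in crushed DLKi, against 13.4 ± 0.706 in uncrushed DLKi retina (SD, n = 5 each), and 10.6 ± 1.44 in crushed vehicle, against 11.7 ± 1.47 in uncrushed vehicle retina (SD, n = 3 each). These shares follow from the levels above and were not tested on their own.

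Sarm1, the NAD-cleaving executioner of axon degeneration, showed no change that passed the test. It had 23.6, 23.3, 27.2, 28.4 and 28.9 nRPKM in crushed DLKi libraries, against 24.3, 28.6, 26.6, 26.6 and 29.1 nRPKM in uncrushed DLKi libraries. It had 25.9, 22.0 and 30.1 nRPKM in crushed vehicle libraries, against 29.9, 24.9 and 23.9 nRPKM in uncrushed vehicle libraries. The groups overlapped throughout. The crush change was -0.04 ± 0.09 with the inhibitor (-0.22 to 0.15, adjusted p = 0.937) and -0.01 ± 0.12 with vehicle (-0.26 to 0.23, adjusted p = 0.998). The inhibitor's difference was 0.02 ± 0.10 in crushed and 0.04 ± 0.10 in uncrushed retina. Here the libraries that stood apart, at 30.1 and 29.9 nRPKM, had the highest Sarm1 level of their groups, where they had the lowest Nmnat2. The ratio of Nmnat2 to Sarm1 was 0.221 to 0.305 in crushed DLKi, against 0.294 to 0.399 in uncrushed DLKi retina; it was 0.155 to 0.343 in crushed vehicle, against 0.18 to 0.369 in uncrushed vehicle retina. The ratio overlapped between crushed and uncrushed retina in both arms.

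Nampt, the rate-limiting salvage enzyme, was the steadiest of the 7. It averaged 12.2 ± 0.688 nRPKM in crushed DLKi, against 11.6 ± 0.969 in uncrushed DLKi retina (SD, n = 5 each), and 12.4 ± 0.886 in crushed vehicle, against 12.5 ± 0.473 in uncrushed vehicle retina (SD, n = 3 each). Its crush change was 0.09 ± 0.06 with the inhibitor (-0.05 to 0.22) and -0.01 ± 0.08 with vehicle (-0.18 to 0.16). Its lowest value, 9.93, was in uncrushed DLKi library 5.

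Of the ubiquitin ligase pair, Fbxo45 read slightly higher with the inhibitor in either eye and Mycbp2 slightly lower after crush, neither past the test. Fbxo45 averaged 12.7 ± 0.876 nRPKM in crushed DLKi, against 11.6 ± 0.448 in crushed vehicle retina, and 12.4 ± 0.409 in uncrushed DLKi, against 11.3 ± 0.93 in uncrushed vehicle retina (SD; n = 5 with DLKi and 3 with vehicle). The log2 difference between inhibitor and vehicle was 0.13 ± 0.06 in each eye (adjusted p = 0.379 crushed, 0.302 uncrushed), and the groups overlapped. Its crush change was 0.04 ± 0.05 with the inhibitor and 0.04 ± 0.07 with vehicle. Mycbp2 averaged 14.9 ± 1.42 nRPKM in crushed DLKi, against 16.5 ± 2.52 in uncrushed DLKi retina, a log2 change of -0.15 ± 0.09 (-0.34 to 0.04, adjusted p = 0.534). It averaged 15.9 ± 1.64 nRPKM in crushed vehicle, against 16.7 ± 0.406 in uncrushed vehicle retina, a change of -0.06 ± 0.12 (-0.31 to 0.18, adjusted p = 0.969). Without uncrushed DLKi library 5, whose 20.9 nRPKM was the highest of all 16, the change with the inhibitor was -0.05.

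**Figure D3:**
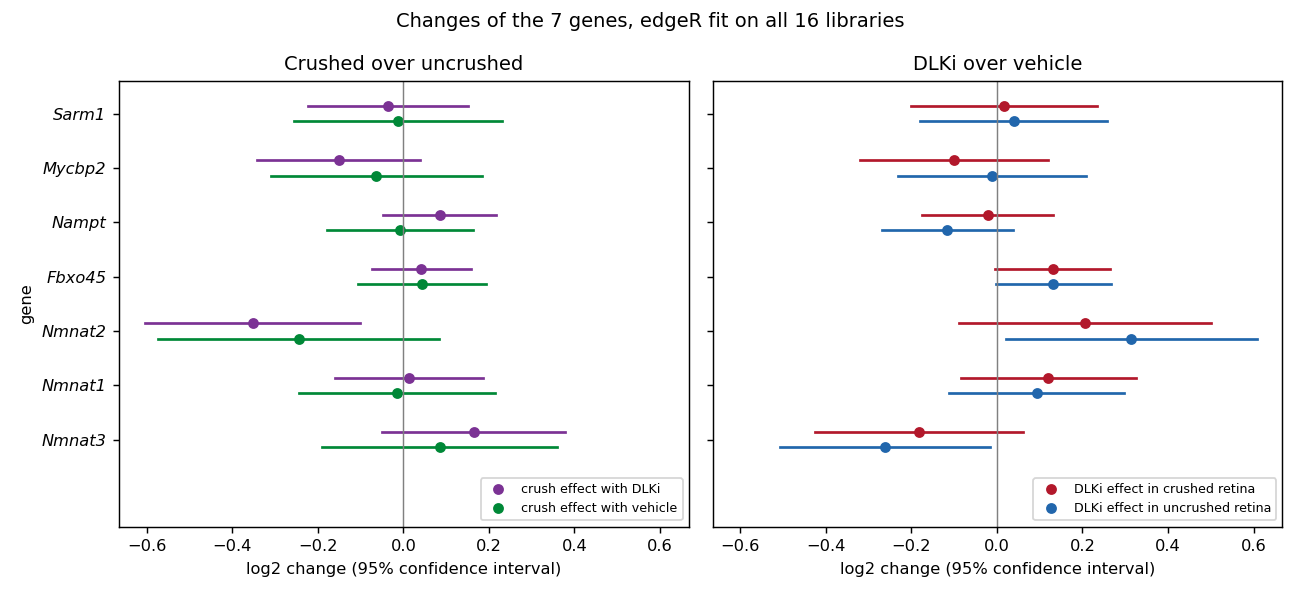
Fitted log2 change of each gene with its 95% confidence interval (linear axis, 0 marks no change). Left, crushed over uncrushed retina with DLKi and with vehicle; right, DLKi over vehicle in crushed and in uncrushed retina. Nmnat2 has the lowest crush values, -0.35 with DLKi, where the interval leaves out 0, and -0.25 with vehicle, where it includes 0. Intervals of the other 6 genes in the left panel all include 0. In the right panel the intervals of Nmnat2 and Nmnat3 in uncrushed retina leave out 0. None of these changes passed the test after adjustment.

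Across the comparisons, 0 of the 7 genes passed the threshold in edgeR's quasi-likelihood test. The share of all tested genes called was 2.63% for crush with vehicle, 5.33% for crush with the inhibitor, 0.505% for the inhibitor in crushed retina and 0.629% for the inhibitor in uncrushed retina. It was 0.0103% for the difference of crush effects and 8.45% for crush averaged over both drugs, so a count of 0 of 7 is near the background in every comparison. An unadjusted p under 0.05 was reached by 1 of the 7 (Nmnat2) for crush with the inhibitor, by the same 1 for crush averaged over both drugs, by 2 (Nmnat2 and Nmnat3) for the inhibitor in uncrushed retina and by 0 in the other comparisons. Among all tested genes that level was reached by 14.4%, 17.4% and 17.3% in the comparisons with a member below it. DESeq2 called 1 of the 7, Nmnat2, for crush averaged over both drugs and 0 in the other comparisons. The share of all genes that DESeq2 called for that average is not given here. The median log2 change of the 7 was -0.01 for crush with vehicle and 0.01 with the inhibitor, beside -0.003 and -0.001 over all tested genes. Over all 7 genes and 6 comparisons the 95% intervals lay between 0.658-fold and 1.52-fold, so each interval leaves out a change larger than that in whole-retina RNA. These intervals do not bound a change limited to ganglion cells.

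Among the other genes of NAD metabolism, some enzymes that use NAD rose with injury. Of 24 NAD-consuming enzymes, the PARPs, sirtuins and NAD glycohydrolases, all were tested; 6 rose with crush averaged over both drugs, 0 fell and 18 did not pass, where 5.22% of all tested genes rose and 3.23% fell. The median log2 change of the 24 was 0.07, against -0.003 over all genes. Parp3, a PARP of DNA break repair, rose by 1.00 ± 0.13 (adjusted p = 5.04e-05), Parp9, an interferon-responsive PARP, by 0.97 ± 0.16 (adjusted p = 0.000478) and Parp1, the main sensor of DNA breaks, by 0.21 ± 0.04 (adjusted p = 0.000981). The other 3, named after their values were seen, were Parp14 (1.25 ± 0.23), Parp12 (0.53 ± 0.11) and the NAD glycohydrolase Bst1 (0.37 ± 0.10). Without the 2 vehicle libraries that stood apart 5 of the 24 rose, Bst1 being lost at adjusted p = 0.0504, and leaving out any single library gave 5 or 6. Over all tested genes single libraries left out gave 1313 to 1787 calls in either direction, against 1639 with all libraries.

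Parp3 averaged 2.64 ± 0.481 nRPKM in crushed DLKi, against 1.27 ± 0.341 in uncrushed DLKi retina (SD, n = 5 each), and 2.75 ± 0.346 in crushed vehicle, against 1.44 ± 0.122 in uncrushed vehicle retina (SD, n = 3 each). Every crushed library lay above every uncrushed one in both arms, at 2.08 to 3.29 in crushed DLKi against 1.03 to 1.85 in uncrushed DLKi, and 2.36 to 3.03 in crushed vehicle against 1.34 to 1.58 in uncrushed vehicle retina; so did 3.4% of all tested genes with DLKi and 8.13% with vehicle. Parp1 averaged 20.5 ± 0.71 nRPKM in crushed DLKi, against 18.7 ± 0.851 in uncrushed DLKi retina (SD, n = 5 each), and 20.8 ± 0.209 in crushed vehicle, against 17.3 ± 0.586 in uncrushed vehicle retina (SD, n = 3 each). Parp14 reached 3.37 nRPKM in 1 crushed DLKi library and spread from 0.884 upward in that group, against 0.499 to 0.663 in uncrushed DLKi retina. Parp9 and Parp12 also had a high value in crushed DLKi retina, 4.17 against a median of 2.23 and 7.62 against a median of 4.92 nRPKM.

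Within the inhibitor arm 4 of the 24 rose with crush, as did 3.29% of all tested genes. They were Parp3 (1.07 ± 0.16, adjusted p = 0.000372), Parp9 (1.15 ± 0.19, adjusted p = 0.00115), Parp14 (1.54 ± 0.28, adjusted p = 0.00205) and, outside the naming rule, Parp12 (0.56 ± 0.13, adjusted p = 0.0118). With single libraries left out, the change came down to 0.97 for Parp3, 0.89 for Parp9, 1.1 for Parp14 and 0.39 for Parp12. All 4 stayed called in edgeR, Parp12 at adjusted p up to 0.0442. Within the vehicle arm, where 1.77% of all tested genes rose, 2 of the 24 did, Parp1 (0.27 ± 0.06, adjusted p = 0.0129) and Parp3 (0.94 ± 0.21, adjusted p = 0.0165). That count was 0 without the 2 vehicle libraries that stood apart and 0 without uncrushed vehicle library 2. It was 1 without crushed vehicle library 1, 2 or 3 or uncrushed vehicle library 3, and 5 without crushed DLKi library 4. Calls over all tested genes moved too, from 510 in either direction to 279 without uncrushed vehicle library 2. They were 276 to 506 over all single libraries left out. Whether the list changed more than all genes was not tested. With edgeR 0 of the 24 were called for the inhibitor in crushed retina, in uncrushed retina or for the difference of crush effects, with 2, 3 and 0 at an unadjusted p under 0.05, a level reached by 13.7%, 17.3% and 1.54% of all tested genes, and DESeq2 called 0 in each. Microglia markers moved the same way with crush: the summed level of the 10 markers was 45.9 to 85.7 nRPKM in crushed DLKi, against 31.0 to 44.8 in uncrushed DLKi retina, and 58.1 to 72.0 in crushed vehicle, against 38.4 to 40.2 in uncrushed vehicle retina. Their part in the PARP results was not tested.

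**Figure D4:**
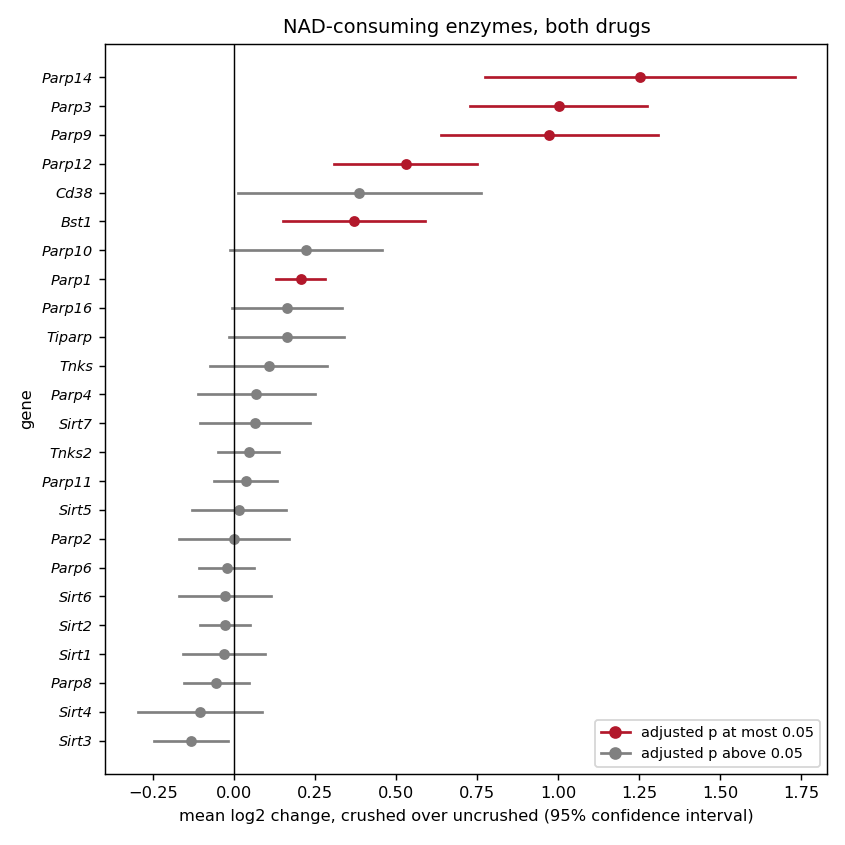
Mean log2 change over both drugs, crushed over uncrushed, of the 24 NAD-consuming enzymes with 95% confidence intervals (linear axis); red marks adjusted p of at most 0.05 in edgeR. The 6 called genes all lie to the right of 0, from Parp1 at 0.21 to Parp14 at 1.25, and the 7 sirtuins lie between -0.13 and 0.06.

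Among the remaining genes of NAD synthesis, 1 passed the test in 1 comparison. Of 20 listed, 14 were tested; the other 6, Qprt, Ido1, Tdo2, Kmo, Acmsd and Nnmt, were too low, at most 0.236 nRPKM in any library. In 5 of the 6 comparisons edgeR called 0 of the 14. An unadjusted p under 0.05 was reached by 3 of the 14 for crush with vehicle (10.4% of all tested genes), 1 for crush with the inhibitor (14.4%), 3 for the inhibitor in crushed retina (13.7%), 4 for the inhibitor in uncrushed retina (17.3%) and 0 for the difference of crush effects (1.54%). DESeq2 called 1 in these 5 comparisons, Nt5e, an ectoenzyme that cleaves nucleotides, which was lower with the inhibitor in uncrushed retina by a log2 change of -0.39 (adjusted p = 0.0173), named after its value was seen. Over all genes DESeq2 called 625 for the inhibitor in uncrushed retina, where edgeR called 122. For crush averaged over both drugs 5 of the 14 had an unadjusted p under 0.05, as did 17.4% of all tested genes. After adjustment 1 rose, where 5.22% of all tested genes did, and 0 fell. It was Ido2, an enzyme of the kynurenine route from tryptophan, by 0.87 ± 0.26 (adjusted p = 0.0461), at a mean of 0.119 nRPKM in crushed DLKi, against 0.0758 in uncrushed DLKi retina, and 0.126 in crushed vehicle, against 0.0612 in uncrushed vehicle retina. This call was lost when any of 10 single libraries was left out, with adjusted p up to 0.169.

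Of 20 partners of axon degeneration and DLK signalling, all were tested. For crush with the inhibitor 3 fell, as did 2.04% of all tested genes, and 0 rose; on average over both drugs 3 fell and 2 rose, where 3.23% and 5.22% of all tested genes did. The calpains, calcium-activated proteases that cut the cytoskeleton of a dying axon, moved in opposite directions. Capn1 fell by 0.48 on the log2 scale on average over both drugs (SE 0.10, adjusted p = 0.00557), with 2.65 ± 0.248 nRPKM in crushed DLKi, against 3.64 ± 0.468 in uncrushed DLKi retina (SD, n = 5 each). Capn2 rose by 0.27 ± 0.06 (adjusted p = 0.00919), and Cast, which encodes the calpain inhibitor calpastatin, by 0.24 ± 0.07 (adjusted p = 0.0322), both named after their values were seen. The Cast call was lost without the 2 vehicle libraries that stood apart (adjusted p = 0.0558) and without any of 6 single libraries. The other 2 that fell were Mapk9 and Mapk10, the kinases JNK2 and JNK3, by 0.23 and 0.40 on average. With the inhibitor alone Capn1 (-0.45 ± 0.13, adjusted p = 0.0459) was lost when any of 11 single libraries was left out. With vehicle alone edgeR called 0 of the 20, with 5 at an unadjusted p under 0.05 (10.4% of all tested genes). In that comparison 2 fell without uncrushed vehicle library 1, and 2 without the 2 libraries that stood apart. Over all tested genes single libraries left out gave 276 to 506 calls there in either direction, against 510 with all libraries. There DESeq2 called Capn2, and the share of all genes that DESeq2 called is not given here. For the inhibitor edgeR called 0 of the 20 in crushed and 0 in uncrushed retina, with 2 and 6 at an unadjusted p under 0.05, where 13.7% and 17.3% of all tested genes were. DESeq2 called 0 in crushed retina and, in uncrushed retina, Mapk8ip3 (0.23) and Stub1 (0.22), both higher with the inhibitor and both named after their values were seen. Over all genes DESeq2 called 418 in crushed and 625 in uncrushed retina, where edgeR called 98 and 122. For the difference of crush effects, both tools called 0 and 0 had an unadjusted p under 0.05.

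Profiles most like each member were sought over the 16 libraries among 13800 genes averaging 1 CPM or more, by the root mean square difference of standardised log2 CPM, where 0 is identical. Nmnat2 had the closest neighbours, Dmtn and Bmerb1 at 0.22 and Ankrd34a at 0.23. Averaged over both drugs their crush changes were -0.27, -0.30 and -0.49. These genes were picked for following Nmnat2 over the same libraries, so a like change was built in. It lends no support to the decrease of Nmnat2. Mycbp2 was nearest to Macf1 (0.23), Cep350 (0.25) and Ubr4 (0.26), and Sarm1 to Pfkfb2 (0.34), Son (0.35) and Prpf4b (0.35). Fbxo45 was nearest to Dcaf7 (0.25), Slc25a44 (0.33) and Kpna6 (0.36), and Nampt to Sc5d (0.47), Pdgfc (0.54) and Ube2g1 (0.55). Nmnat1 was nearest to Rcvrn (0.49), Pomgnt1 (0.51) and Wdr55 (0.55), and Nmnat3, the lowest of the 7, had no neighbour closer than Tmem123 (0.65), Ehd4 (0.68) and Tmem86a (0.68). The likeness takes in differences between single libraries as well as between groups and carries no test.

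RefSeq promoter windows of 300 bases on GRCm38 were given for 5 of the 7 genes, in 6 windows, since Nmnat1 had 2. None held the AP-1 motif TGANTCA, the full CRE TGACGTCA, the E-box CACGTG or the ATF4 motif TGATGNAA on either strand, which 7.8%, 1.8%, 7.2% and 4.0% of 32851 promoters of the same length did. The CRE half-site TGACG, searched for later and contained in the full CRE, occurred at 2 places in the Nmnat2 window and at 1 place each in those of Sarm1 and Nampt, and in 20.8% of all promoters. A missing match says only that these letters are not in the windows.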

How the data were processed

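The authors' deposited count per gene is, per the file headers, the number of reads aligned uniquely to its gene model; the deposited RPKM value (nRPKM) is scaled by a size factor per library. Per the submitters' processing notes the aligner was GSNAP and the build GRCm38; its settings and the gene annotation: not given in the sources used here. Per the labels' protocols, libraries were made with a TruSeq RNA kit, which does not mark strand, and read as single 50-base reads. The ratio of nRPKM to count followed 1 factor per library for all genes (largest relative deviation 5.61e-14).

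Groups came from the labels for eye and drug. Identifiers were matched to RefSeq symbols (31049 of 36528). The test on counts was the quasi-likelihood F test of edgeR 4.0.16 under R 4.3.3 (two-sided, filterByExpr, TMM, a mean per group over all 16 libraries, 12 residual and 5.27 prior degrees of freedom). Adjusted p is Benjamini-Hochberg over 19391 genes per comparison, called at 0.05 or less; intervals are 95%. Levels are nRPKM with no test. Alternatives were DESeq2 1.42.0, its size factors in edgeR, no low-count filter, only the groups compared, limma 3.58.1 on log2(nRPKM + 0.1) and log2(nRPKM + 1), libraries left out, and a block by adjacent library numbers. No replicates were copies, their chi-square per degree of freedom being 6.73 to 42.8. The fits were also run on simulated counts of independent libraries, with no pairs and no library set apart. The outcome of that run is not given here and carries no result above.

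The members and lists were chosen with earlier results of these data known, as was the rule for named genes: all 7 members; from each pathway list up to 3 called genes with the smallest p per comparison; the 3 most similar genes per member; and the 2 called ganglion cell markers with the smallest p in crush comparisons. Comparisons that share libraries are not independent.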

Additional observations from a re-analysis of the deposited data

Results flagged for a closer look

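Among the DLKi groups, the Mycbp2 level had a library far from the rest. In uncrushed DLKi retina, library 5 had 20.9 nRPKM, against 14.4, 15.7, 16.03 and 15.6 nRPKM in libraries 1 to 4. The gap to the next value was 0.753 of the group's range, above Dixon's critical value of 0.71 for 5 samples. Of 14 groups of 5 libraries examined, 1 was past it, and chance puts about 1 in 20 there; the vehicle groups of 3 libraries are too small for this rule and were not examined. The same library had the highest summed lens marker level of all 16, 435 nRPKM, and the lowest Nampt level, 9.93 nRPKM; whether these bear on Mycbp2 was not tested.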

How the results depend on the processing

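The 7 genes gave 42 results, 7 in each of 6 comparisons, and these were recomputed under 8 other settings and with each of 16 libraries left out in turn. Fitting only the groups compared covered 4 of the 6 comparisons, leaving out the difference and the average of crush effects, and the replicate block covered the 4 that involve crush. Of the 980 values so obtained, 912 kept their direction and their side of the threshold, 58 changed sign, all of them for changes that were not called, and 10, all of Nmnat2, came past the threshold.

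Of the 7 genes, the number called was 1 in place of 0 for crush with the inhibitor when only the groups compared were fitted, and 1 without uncrushed vehicle replicate 1 and crushed vehicle replicate 3 together. For crush averaged over both drugs it was 1 with DESeq2 and 1 without that pair of libraries. The gene was Nmnat2 each time. Leaving out single libraries gave 0 to 1 for these 2 comparisons and 0 for the other 4. Over all genes these 2 comparisons then had 748 to 1258 and 1313 to 1787 calls, against 1034 and 1639 with all libraries.

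The labels tie no retina to a mouse, but library numbers are adjacent for 8 pairs of crushed and uncrushed retinas of the same drug. Deviations from the group means correlated at 0.0448 to 0.438 within these pairs, and 7 of 8 crushed libraries correlated best with their own partner, which is a hint from the data and not from the design; the pair with the highest correlation is the pair of vehicle libraries that stood apart. With these pairs as a replicate block, 1 of the 7 genes was called for crush with vehicle, 1 with the inhibitor and 1 on average, Nmnat2 in each, at -0.242, -0.353 and -0.297 (adjusted p = 0.0176, 6.77e-05 and 3.47e-05). Within pairs, Nmnat2 was lower in the crushed retina in 8 of 8, by log2 ratios of -0.46 to -0.21. The block raised calls over all genes to 1234, 2080 and 2818 in these comparisons, against 510, 1034 and 1639 without it. The shares of all genes that rose or fell are not given, and whether the lists exceed them was not tested. In this order, 5, 6 and 6 of the 24 NAD-consuming enzymes rose, against 2, 4 and 6, and on average 1 fell, against 0. Of the 20 partners 1, 2 and 2 rose, against 0, 0 and 2, and 3, 3 and 5 fell, against 0, 3 and 3. Of the 14 tested genes of NAD synthesis 0 rose and 1 fell on average, against 1 and 0, so the Ido2 call was lost.

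Signs changed as follows, on the log2 scale. Without the pair of vehicle libraries, Nampt was 0.0309 for crush with vehicle, Mycbp2 0.00598 for the inhibitor in uncrushed retina, and the difference of crush effects -0.0223 for Nmnat3 and 0.033 for Fbxo45. Without the low-count filter Nmnat1 was 0.000454 for crush averaged over both drugs. With single libraries left out, crush with vehicle ranged over -0.132 to 0.0914 for Sarm1, -0.0979 to 0.0649 for Nmnat1, -0.00319 to 0.144 for Nmnat3, -0.057 to 0.0467 for Nampt, -0.14 to 0.00607 for Mycbp2 and -0.0172 to 0.0962 for Fbxo45. Crush with the inhibitor ranged over -0.072 to 0.00461 for Sarm1 and -0.0188 to 0.0515 for Nmnat1, and crush on average over -0.0841 to 0.0278 for Sarm1 and -0.0423 to 0.0394 for Nmnat1. The inhibitor in crushed retina ranged over -0.0871 to 0.136 for Sarm1 and -0.0765 to 0.0221 for Nampt, and in uncrushed retina over -0.0237 to 0.143 for Sarm1 and -0.121 to 0.0314 for Mycbp2. The difference of crush effects ranged over -0.127 to 0.0967 for Sarm1, -0.0511 to 0.111 for Nmnat1, -0.27 to 0.0733 for Nmnat2, -0.158 to 0.0248 for Mycbp2 and -0.0537 to 0.0598 for Fbxo45. The cause was not tested.

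Over all genes, the number called for the inhibitor in crushed retina was 98, against 418 with DESeq2, 45 with only the groups compared, 53 without the pair of vehicle libraries and 22 to 144 without single libraries. In uncrushed retina it was 122, against 625, 3, 11 and 17 to 205. For crush with vehicle, fitting only the groups compared called 281 and single libraries left out gave 276 to 506. For the difference of crush effects 2 genes were called, against 5 with DESeq2, 1 without the pair and 1 to 2 without single libraries. Reads were fewest for Nmnat3, at 118 to 206 a library, and Nmnat1, at 184 to 372, where counting error is relatively largest; its share of the spread between libraries was not tested.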
